A study of Homo sapiens with 12 samples.

Results

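MicroRNA precursor transcripts were examined in MDA-MB-231 breast cancer cells of human origin with a change in HMGA2, Tet1 or HOXA9. A gene was taken as a member when a probe set carried its symbol alone and that symbol named a microRNA gene rather than a host transcript. This gave 173 members among 18417 genes, each with 1 probe set. A further 32 probe sets carried a microRNA symbol together with other symbols and were not members, MIRLET7A3 and MIRLET7B of the let-7 family among them.

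All groups were labelled as line 1833, a derivative of MDA-MB-231 known for spread to bone. The 3 shHMGA2 arrays came from cells with an shRNA against HMGA2, a chromatin protein, carried in a pLKO.1 lentivirus and kept in puromycin. The 2 arrays labelled Tet1 came from cells with an inducible Flag-Tet1, an enzyme that oxidises 5-methylcytosine in DNA. The 2 arrays labelled HOXA9 came from cells with an inducible HOXA9, a homeobox transcription factor. Both inducible lines used pLVX-TRE3G constructs with pCMV-Tet3G, were selected in puromycin and G418, and grew in Tet System Approved serum. Below they are also called the induced lines, a short name that does not state that either factor was induced in these arrays. The 3 control arrays came from 1833 cells with no construct named in the labels. Serum and selection thus differ between the inducible lines and control wherever the construct does. Likewise, the lentivirus and the puromycin come with the shRNA in shHMGA2, while no construct is named for control. For the inducible lines the source names read 1834 and the titles 1833. Replicates are labelled biological, and no label says whether they came from separate transductions or clones, so p-values measure only the spread between these samples.

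A microRNA gene is transcribed as a long primary transcript, from which Drosha with DGCR8 cuts a hairpin. Dicer then trims the hairpin to a mature microRNA of about the length of a short oligonucleotide, which guides an Argonaute protein to messenger RNAs through a short stretch near its start called the seed. The let-7 family restrains growth-promoting genes such as HMGA2 and LIN28B, and LIN28 proteins in turn block let-7 maturation. The microRNAs miR-221, miR-222 and miR-21 are widely described as growth promoting in tumours, and miR-221 and miR-222 are known for high levels in basal-like breast cancer cells. The miR-100 and miR-125b genes lie beside a let-7 gene in conserved clusters, and miR-181 is known from lymphoid and breast cancer cells. Every value below is taken as a precursor signal and not as the amount of mature microRNA. Probe positions were not available, so which part of a transcript each probe set reads was not checked. In bulk RNA, fewer cells with a transcript and less of it per cell cannot be told apart.

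The mature sequences below belong to the precursors on which the comparisons turn. They were taken from RefSeq on GRCh38.p14, run 5′ to 3′, and have the seed (bases 2 to 8) in capitals. They show that members with 1 shared seed can come from different loci, each with its own probe set here. Whether a probe set reads its own locus alone was not checked.
miR-221-3p: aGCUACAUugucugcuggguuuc
miR-222-3p: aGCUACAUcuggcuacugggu
let-7a-5p: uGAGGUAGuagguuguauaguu
let-7f-5p: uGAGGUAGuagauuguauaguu
let-7g-5p: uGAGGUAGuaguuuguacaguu
miR-100-5p: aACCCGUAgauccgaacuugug
miR-99a-5p: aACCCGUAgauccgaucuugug
miR-125b-5p: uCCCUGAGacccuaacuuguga
miR-21-5p: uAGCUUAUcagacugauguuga
miR-181b-5p: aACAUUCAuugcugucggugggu
miR-181a-5p: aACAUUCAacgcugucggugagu
miR-15a-5p: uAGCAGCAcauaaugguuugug
miR-16-5p: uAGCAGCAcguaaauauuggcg
miR-32-5p: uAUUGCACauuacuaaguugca
miR-218-5p: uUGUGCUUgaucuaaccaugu

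The seed GAGGUAG was shared by 10 members, the measured let-7 genes and MIR98. MIR221 and MIR222 shared GCUACAU, and outside it their arms differ, with the same base at 11 of 21 compared positions. Let-7a and let-7f have the same base at 21 of 22 positions. The seed ACAUUCA was carried by 5 MIR181 members and AGCAGCA by 5 members, MIR15A and MIR16-1 among them. Of the 173 members, 164 had a mature sequence in the RefSeq table.

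MIRLET7A1 and MIRLET7A2 give the same mature let-7a, identical at 22 of 22 positions, from hairpins on chromosomes 9 and 11, so only the precursor tells them apart. MIRLET7A2 lies at chr11:122146522-122146593 on the minus strand, with MIR100 at chr11:122152229-122152308 on the same strand. MIRLET7A1 lies at chr9:94175957-94176036 on the plus strand, beside MIRLET7F1 at chr9:94176347-94176433. The hairpins are shown with the mature arm in capitals.
MIRLET7A2: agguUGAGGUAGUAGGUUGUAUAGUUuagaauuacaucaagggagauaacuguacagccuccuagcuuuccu
MIRLET7A1: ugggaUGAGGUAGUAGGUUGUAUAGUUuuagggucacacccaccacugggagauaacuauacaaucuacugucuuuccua

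MIR221 lies at chrX:45746157-45746266 and MIR222 at chrX:45747015-45747124, both on the minus strand, with starts 858 bases apart. MIR181B1 lies at chr1:198858873-198858982 and MIR181A1 at chr1:198859044-198859153, also on the minus strand, with starts 171 bases apart. These neighbours are printed because MIR221 and MIR222 were both lower under Tet1 than under HOXA9 and in shHMGA2 than in control, whereas in the second pair MIR181B1 alone was called between Tet1 and HOXA9, beside a neighbour with a low signal. The mature arm is again in capitals.
MIR221: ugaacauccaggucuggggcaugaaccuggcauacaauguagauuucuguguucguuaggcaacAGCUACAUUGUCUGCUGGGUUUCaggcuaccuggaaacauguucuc
MIR222: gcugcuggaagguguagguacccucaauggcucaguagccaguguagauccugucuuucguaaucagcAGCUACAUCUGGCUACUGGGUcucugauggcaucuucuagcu
MIR181B1: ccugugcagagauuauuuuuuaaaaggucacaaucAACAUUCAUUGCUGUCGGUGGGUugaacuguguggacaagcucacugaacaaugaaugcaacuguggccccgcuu
MIR181A1: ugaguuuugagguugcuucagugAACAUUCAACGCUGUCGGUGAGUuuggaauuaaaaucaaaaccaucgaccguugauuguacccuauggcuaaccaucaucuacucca

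The arrays formed 2 sets. For all probe sets, pairs of arrays correlated at 0.986 to 0.998 within the set of shHMGA2 and control and 0.993 to 0.997 within the set labelled Tet1 and HOXA9, against 0.945 to 0.966 between the sets. Over the members they were 0.980 to 0.996, 0.967 to 0.996 and 0.889 to 0.944. The lower quartile of the log2 values was 5.75 in shHMGA2, 6.24 in the arrays labelled Tet1, 6.24 in those labelled HOXA9 and 5.75 in control. Each group lies in 1 set, so that across the sets the effects of array set, serum and construct cannot be told apart. As checks of the labels, TET1 (probe set 7927876) was at 8.97 in shHMGA2, 7.07 in the arrays labelled Tet1, 7.30 in those labelled HOXA9 and 6.56 in control. It was thus highest in shHMGA2 (log2 2.41 against control, limma adjusted p = 7.7e-06), and not higher under the label Tet1 than under HOXA9 (-0.23, adjusted p = 0.72). The probe set shared by ELAC2 and HMGA2 was at 8.81 in shHMGA2, 10.42 under Tet1 and 10.41 under HOXA9, against 9.56 in control. No probe set listed HOXA9 among its symbols, so that label was not checked in this way.

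Markers of other cell types moved as well, and their part in the microRNA results was not tested. Of 9 genes of a list of HEK293-type kidney line traits, 5 rose in shHMGA2, and against control 6 were higher and 1 lower under Tet1 and 5 higher and 2 lower under HOXA9. The list mean per array was 7.42 to 7.63 in shHMGA2, 7.09 to 7.15 under Tet1 and 6.98 to 7.11 under HOXA9, against 6.59 to 6.69 in control. In shHMGA2, 7 of 11 measured basal breast line markers fell. Over all genes, 13.6% were called higher and 12.6% lower in shHMGA2 than in control. In both induced lines, 6 of 7 fibroblast, 4 of 5 endothelial and 5 of 5 leukocyte markers were higher than in control, in a comparison where most genes were called. In control, 3 fibroblast, 3 endothelial and 4 leukocyte markers lay under 6.26, the 30th percentile of all probe sets. The basal breast list had 7 of 11 markers higher and 3 lower in each induced line. Of 8 luminal breast markers, 4 were higher and 1 lower under Tet1, and 3 higher and 1 lower under HOXA9. Under all 3 scalings used below, 4 fibroblast, 3 endothelial, 1 leukocyte and 3 kidney line markers stayed higher under Tet1, and 3, 3, 2 and 2 of these lists under HOXA9, while 4 kidney line markers stayed higher in shHMGA2. The basal list kept 2 higher and 3 lower under Tet1 and 3 and 3 under HOXA9. The luminal list kept 2 higher and 1 lower in each induced line.

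Most members gave a low signal. Their means over the 10 arrays had a median of 5.81 on the log2 scale, and 68 of 173 members (39.3%) lay above 6.26, the 30th percentile taken over all probe sets, against 14945 of 18417 genes (81.1%). A group mean under 6.26 is not known to lie above background. In all, 82 members exceeded it in at least 1 group, and 13 had a mean above 8, among them MIRLET7A2, MIR21, MIR221, MIR181B1 and MIR138-1. Signals of different probe sets are not comparable as amounts of RNA.

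**Figure D1:**
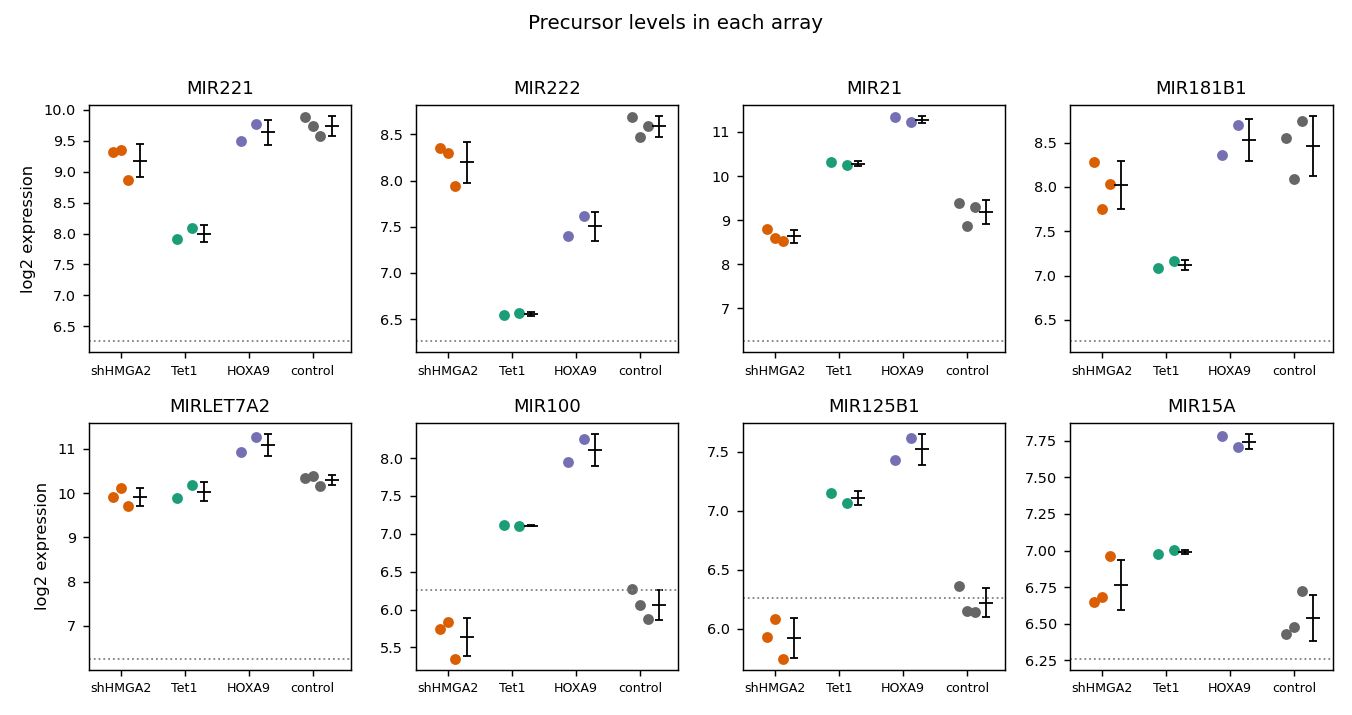
Log2 expression of 8 precursors in each array, with groups shHMGA2, Tet1, HOXA9 and control from left to right, points for arrays, bars for the mean and SD, and a dotted line at 6.26. MIR221, MIR222, MIR21, MIR181B1, MIRLET7A2, MIR100 and MIR15A were lower in both arrays labelled Tet1 than in both labelled HOXA9.

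The arrays labelled Tet1 were compared with those labelled HOXA9 within 1 array set, where the lines shared vector, serum and selection. The comparison asks how the precursors differ between the 2 induced lines. Here 9 precursors were lower in the arrays labelled Tet1 and 0 were higher, by limma's adjusted p under 0.05 over all genes. The 9 are MIR221, MIR222, MIR181B1, MIRLET7A2, MIRLET7F1, MIR100, MIR21, MIR15A and MIR32. They make up 5.20% of the members, while 0.434% of all genes were called in this comparison, 0.32% lower and 0.114% higher. The median difference was 0.00 over members and 0.01 over all genes, and 161 of 173 members differed by less than 0.5 log2. The arrays of the groups did not overlap for 27 members that were higher and 39 that were lower, where 41.3% of all genes had no overlap. In the same comparison 2 of 7 fibroblast markers were higher under Tet1 under all 3 scalings, the collagen genes COL1A1 (9.38 and 9.35, against 8.83 and 8.78 under HOXA9, adjusted p = 0.0084) and COL1A2 (8.76 and 8.76, against 8.35 and 8.27, adjusted p = 0.044). The fibroblast list averaged 7.17 to 7.20 per array under Tet1, against 6.896 to 6.898 under HOXA9, with DCN, LUM and FAP under 6.26 in both, and its part in the precursor differences was not tested.

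**Figure D2:**
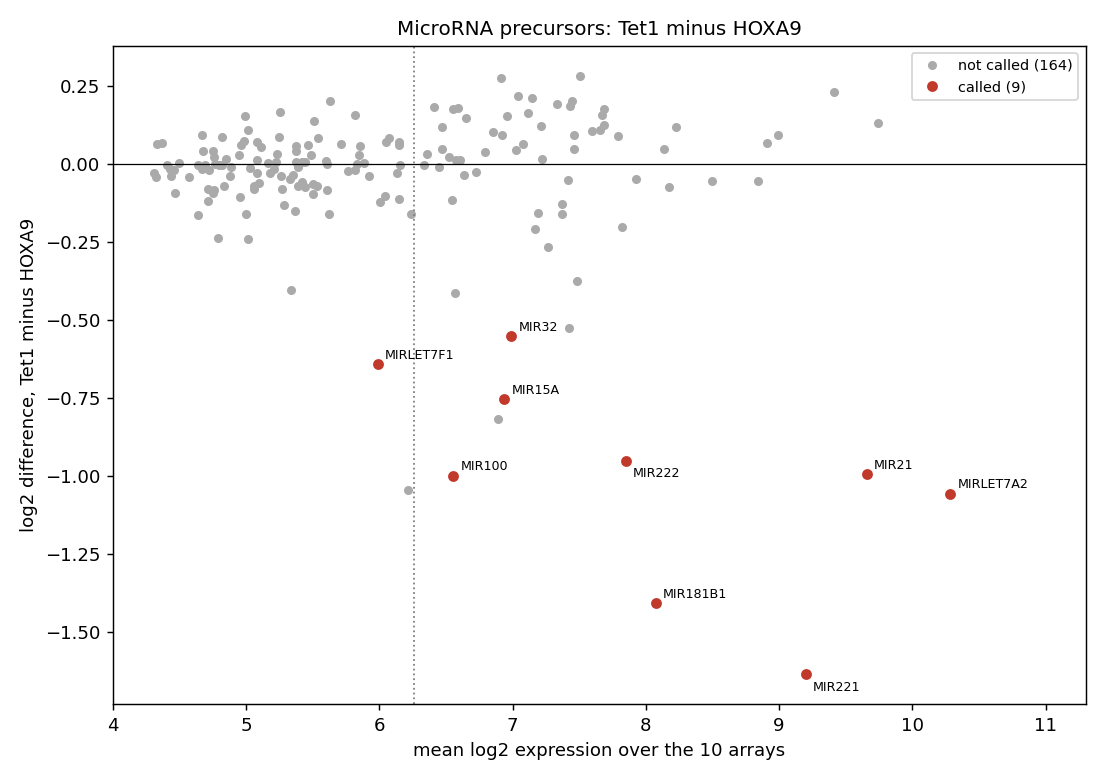
Difference of the log2 values, Tet1 minus HOXA9, against the mean log2 level over the 10 arrays, one point per member, with called members in red and a dotted line at 6.26. The 9 called members all lie below 0, while most others lie within 0.5 of it.

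MIR221 and MIR222 gave the clearest pair. MIR221 was at 7.91 and 8.09 in the arrays labelled Tet1, against 9.49 and 9.78 in those labelled HOXA9. MIR222 was at 6.54 and 6.57, against 7.40 and 7.62. For both genes the arrays of the groups did not overlap. MIR221 was 3.11-fold lower (log2 -1.64, SE 0.16, 95% confidence interval -1.98 to -1.29, limma adjusted p = 0.00086) and MIR222 1.93-fold lower (log2 -0.95, SE 0.13, -1.23 to -0.67, adjusted p = 0.0074). MIR221 was called under all 11 settings tried, with adjusted p up to 0.0254, while MIR222 was lost when either Tet1 array or HOXA9 replicate 2 was left out, with adjusted p up to 0.128.

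MIRLET7A2 and MIR100, whose starts lie 5707 bases apart on chromosome 11, were also lower together. MIRLET7A2 was at 9.88 and 10.19 in the arrays labelled Tet1, against 10.92 and 11.27 in those labelled HOXA9 (log2 -1.06, SE 0.15, limma adjusted p = 0.0097). MIR100 was at 7.11 and 7.10, against 7.95 and 8.26 (log2 -0.999, SE 0.16, adjusted p = 0.019). Neither gene's arrays overlapped between the groups. MIR125B1, which lies farther along the same arm, was at 7.15 and 7.07, against 7.43 and 7.61, a difference of -0.41 that did not pass (95% confidence interval -0.66 to -0.17, adjusted p = 0.2).

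MIR21, the precursor of a microRNA that represses PDCD4 and other growth-restraining genes, was at 10.32 and 10.24 in the arrays labelled Tet1, against 11.33 and 11.22 in those labelled HOXA9 (log2 -0.995, SE 0.14, limma adjusted p = 0.01). Its host gene VMP1, whose transcription unit the MIR21 locus overlaps, averaged 12.74 ± 0.06 under Tet1 and 12.71 ± 0.06 under HOXA9 (SD, n = 2 each), a difference of 0.03 (adjusted p = 0.93). The precursor signal and the host signal therefore differed in what they showed for the same pair of groups.

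MIR181B1 was at 7.08 and 7.16 in the arrays labelled Tet1, against 8.36 and 8.70 in those labelled HOXA9 (log2 -1.41, SE 0.20, limma adjusted p = 0.01). Its close neighbour MIR181A1 averaged 5.12 and 5.11, a difference of 0.00 (95% confidence interval -0.20 to 0.21), with both means under 6.26. MIR15A, from a locus lost in many leukaemias, was at 6.98 and 7.002 under Tet1, against 7.78 and 7.71 under HOXA9 (log2 -0.75, SE 0.11, adjusted p = 0.013). MIR16-1, whose start lies 146 bases from that of MIR15A, differed by -0.01 (95% confidence interval -0.16 to 0.15), again with both means under 6.26. The host transcript of both, DLEU2, differed by -0.21 (adjusted p = 0.62). In these 2 clusters the called member was the one with the signal above the 30th percentile.

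MIR32 was at 6.87 and 6.90 in the arrays labelled Tet1, against 7.36 and 7.52 in those labelled HOXA9 (log2 -0.55, SE 0.08, limma adjusted p = 0.011). MIRLET7F1 was at 5.25 and 5.30, against 5.80 and 6.04 (log2 -0.64, SE 0.12, adjusted p = 0.043), with all values under 6.26. After a joint quantile normalization the MIRLET7F1 call was lost, whereas the other 8 calls held under the deposited values, a joint quantile normalization and equal array medians. MIR29A, named after its value was seen, had a difference as large (-1.05) without a call (adjusted p = 0.098), since its HOXA9 arrays stood at 5.58 and 6.40. With 2 arrays a group the calls are fragile: without Tet1 replicate 1, without Tet1 replicate 2 or without HOXA9 replicate 2, the number called lower was 1, 2 and 1.

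The remaining members of the compared families were measured without a call between these 2 groups. In the let-7 family, MIRLET7A1, MIRLET7C, MIRLET7D, MIRLET7E, MIRLET7F2, MIRLET7G, MIRLET7I and MIR98 differed by -0.20 to 0.00. In the miR-100 and miR-10 family, MIR99A differed by -0.27, MIR99B by 0.12, MIR10A by -0.12, MIR10B by 0.07, MIR125A by 0.20 and MIR125B2 by -0.05. MIR181A2, MIR181B2 and MIR181C differed by -0.12, 0.00 and 0.05. Each of these families thus held members that were called beside others that were not. Of the uncalled, MIR98, MIRLET7C, MIRLET7F2, MIR10A, MIR10B and MIR125B2 averaged 4.33 to 5.33 over the 10 arrays, under 6.26. MIRLET7G and MIR181A1 also had means under 6.26 in both groups. At such levels a missing call does not show that a precursor was unchanged.

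Genes that make or use microRNAs were also compared between the induced lines. Only 0.434% of all genes were called there, so 0 calls in a short list say little. Of 25 measured processing genes, 0 were called in either direction (limma adjusted p), with a median difference of -0.07, and DROSHA, DGCR8 and DICER1 differed by -0.12, -0.08 and 0.08. Of 12 measured let-7 targets 0 were called, with a median of -0.02. Of 9 measured targets of miR-221 and miR-222, FOS, an immediate-early transcription factor, was higher under Tet1: 9.55 and 9.35, against 8.88 and 8.83 under HOXA9 (log2 0.60, SE 0.10, adjusted p = 0.033). Of 5 measured miR-21 targets, SPRY2, an inhibitor of receptor tyrosine kinase signalling, was lower: 10.32 and 10.33 under Tet1, against 10.67 and 10.75 under HOXA9 (log2 -0.38, SE 0.07), with an adjusted p that rounds to 0.05 and lies just under the threshold, a call not held under the other scalings. Target lists describe messenger RNA levels only, and were chosen from general knowledge of these microRNAs.

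Set against control, shHMGA2 shows which precursors differed between the shRNA line and control. Depletion of HMGA2 itself was read only by the probe set shared with ELAC2 (8.81 against 9.56 in control). Effects of the shRNA, the lentivirus and the puromycin cannot be told apart here. Here 3 precursors rose and 13 fell, by limma's adjusted p under 0.05 over all genes. The rises were MIR218-1, MIRLET7F1 and MIR32. The falls included both members of the miR-221 cluster, MIR21, both measured members of the miR-100 cluster with MIR125B1, MIR138-1, MIR107, MIR106B and MIR503. Together these are 9.25% of the members, below the 26.2% of all genes called in this comparison, of which 13.6% were higher and 12.6% lower. Among the 68 members above the 30th percentile, 13 were called (2 higher, 11 lower), or 19.1%, against 30.7% of all genes above it. The median difference was -0.04 over members and -0.03 over all genes. The arrays of the groups did not overlap for 7 members that were higher and 34 that were lower, where 40.5% of all genes had no overlap.

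**Figure D3:**
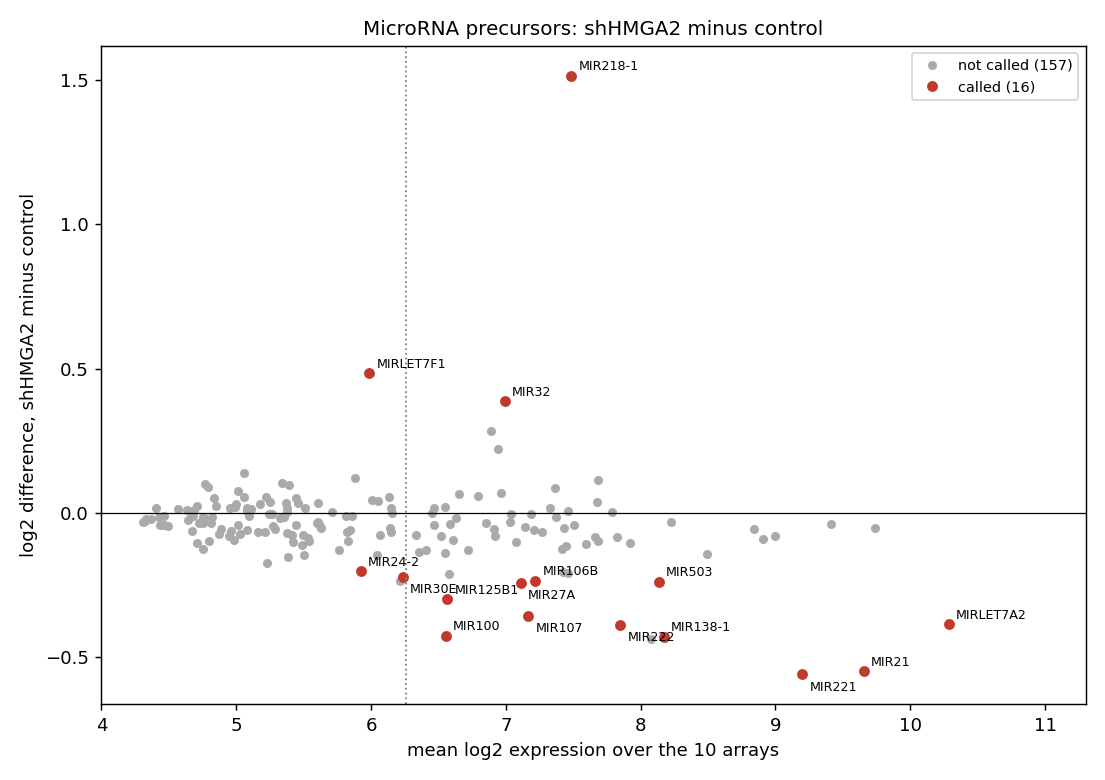
Difference of the log2 values, shHMGA2 minus control, against the mean log2 level over the 10 arrays, one point per member, with the 16 called members in red and named and a dotted line at 6.26. MIR218-1 stands alone at 1.51, and the called falls lie between -0.20 and -0.56.

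MIR218-1 had the largest change of the 173 members. It was at 8.24, 8.39 and 8.29 in shHMGA2, against 6.99, 6.86 and 6.53 in control, with no overlap, a condition of its being named. The rise was 2.86-fold (log2 1.51, SE 0.12, 95% confidence interval 1.26 to 1.77, limma adjusted p = 3.8e-06). MIR218-1 lies in an intron of SLIT2, which encodes a secreted guidance protein. SLIT2 averaged 11.36 ± 0.16 in shHMGA2 and 10.44 ± 0.24 in control (SD, n = 3 each), a rise of 0.92 log2 (adjusted p = 0.00011). The copy in SLIT3, MIR218-2, which gives the same mature miR-218, averaged 5.64 and 5.60 with a difference of 0.04 (adjusted p = 0.79), as did SLIT3 itself with -0.01.

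MIR32 was at 7.06, 7.11 and 7.04 in shHMGA2, against 6.59, 6.69 and 6.77 in control (log2 0.39, SE 0.07, limma adjusted p = 0.0011). MIRLET7F1 was at 6.29, 6.57 and 6.61, against 5.86, 6.08 and 6.08 (log2 0.48, SE 0.10, adjusted p = 0.0031). The groups did not overlap for either gene, which for MIR32 was a condition of being named, and control lay under 6.26 for MIRLET7F1. MIRLET7A1 and MIRLET7D, on the same stretch of chromosome 9, differed by 0.00 and 0.09 without a call.

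MIR221 was at 9.32, 9.34 and 8.87 in shHMGA2, against 9.89, 9.75 and 9.57 in control. MIR222 was at 8.36, 8.30 and 7.94, against 8.69, 8.47 and 8.59. In both, shHMGA2 replicate 3 was the lowest array, and no shHMGA2 array reached the lowest control array. MIR221 fell by 0.56 log2 (SE 0.13, limma adjusted p = 0.0073) and MIR222 by 0.39 (SE 0.10, adjusted p = 0.017). MIR222 was no longer called without shHMGA2 replicate 3 or without control replicate 1, with adjusted p up to 0.0631 over the 13 settings.

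MIR21 was at 8.80, 8.59 and 8.52 in shHMGA2, against 9.38, 8.87 and 9.29 in control, a log2 difference of -0.55 (SE 0.12, limma adjusted p = 0.0047) that was called under all 13 settings. VMP1, its host, averaged 12.75 ± 0.05 in shHMGA2 and 12.77 ± 0.01 in control (SD, n = 3 each), a difference of -0.03 (adjusted p = 0.77). As in the induced lines, the MIR21 probe set moved while that of the host did not pass.

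MIRLET7A2 was at 9.90, 10.11 and 9.70 in shHMGA2, against 10.33, 10.38 and 10.16 in control (log2 -0.39, SE 0.12, limma adjusted p = 0.036). MIR100 was at 5.74, 5.83 and 5.35, against 6.27, 6.05 and 5.87 (log2 -0.42, SE 0.13, adjusted p = 0.031). MIR125B1 was at 5.93, 6.08 and 5.74, against 6.36, 6.15 and 6.14 (log2 -0.30, SE 0.09, adjusted p = 0.032). The groups did not overlap in any of the 3 genes, but gaps were narrow, the group means of MIR100 and MIR125B1 lay under 6.26, and each call was lost in 4 of 13 settings, leaving out control replicate 1 or shHMGA2 replicate 3 among them, with adjusted p up to 0.139. The miR-99 genes at the other copies of this cluster differed by -0.06 (MIR99A) and 0.11 (MIR99B) without a call.

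MIR138-1, whose mature product is abundant in the nervous system, was at 8.21, 8.15 and 7.83 in shHMGA2, against 8.49, 8.55 and 8.44 in control (log2 -0.43, SE 0.09, limma adjusted p = 0.0052). MIR107, which lies in the pantothenate kinase gene PANK1, fell by 0.36 (SE 0.08, adjusted p = 0.0055), and PANK1 differed by 0.14 (adjusted p = 0.11). MIR106B, in the replication gene MCM7, fell by 0.23 (SE 0.05, adjusted p = 0.0065), while MCM7 differed by 0.08 (adjusted p = 0.35), and MIR93 and MIR25 of the same intron cluster by 0.06 and -0.14 without a call. In each of these 3 genes no shHMGA2 array reached the lowest control array, which was a condition of their being named. MIR27A and MIR503 both fell by 0.24, with adjusted p of 0.021 and 0.028, calls lost in 3 and 4 of 13 settings. MIR24-2 and MIR30E, named after their values were seen, fell by 0.20 and 0.22, with shHMGA2 and control means under 6.26 and adjusted p of 0.043 and 0.048.

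Counted over all settings in which 1 array was left out, 3 to 4 members were called higher and 6 to 11 lower in shHMGA2. The lowest count came without control replicate 1 and again without shHMGA2 replicate 3, with 6 lower in each. MIR218-1, MIR32, MIR221, MIR21, MIR138-1, MIR107 and MIR106B were called in all 13 settings, and MIRLET7F1 in all 12 in which it was tested.

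Genes of microRNA production were measured in the same arrays. Of 25 processing genes, 9 rose and 1 fell in shHMGA2 (limma adjusted p under 0.05), beside 26.2% of all genes and 30.7% of those above the 30th percentile that were called in either direction. LIN28B, the blocker of let-7 maturation, was at 7.69, 7.61 and 8.77 in shHMGA2, against 4.84, 4.89 and 4.92 in control, with control under 6.26 (log2 3.14, SE 0.23, limma adjusted p = 2.2e-06). DDX17, a helicase of the Drosha complex, rose by 0.86, HNRNPA1 by 0.38, the RNA-editing enzyme ADAR by 0.34 and DICER1 by 0.25, and AGO2, the slicing Argonaute, fell by 0.23. Under all 3 scalings used below 6 stayed higher, PRKRA, AGO1 and TNRC6B being lost, and AGO2 stayed lower. DROSHA differed by 0.00, XPO5, the exporter of hairpins, by -0.03, and neither passed.

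Of 12 measured let-7 targets 5 rose and 3 fell in shHMGA2, to be read beside the same 26.2% of all genes. The oncofetal RNA-binding gene IGF2BP1 was at 10.25, 10.38 and 10.71 in shHMGA2, against 6.70, 6.58 and 6.33 in control (log2 3.91, SE 0.13, limma adjusted p = 1.9e-09). CDC25A, a cell cycle phosphatase, rose by 0.59 and ARID3B by 0.42, while IGF2BP2, IGF2BP3 and the receptor TGFBR1 fell by 0.35, 0.34 and 0.44. Of 9 measured targets of miR-221 and miR-222, the receptor tyrosine kinase gene KIT rose by 0.84 and the apoptosis gene BCL2L11 by 0.59, TIMP3, an inhibitor of matrix proteases, fell by 0.60, and CDKN1B, the best known target, differed by 0.09 (adjusted p = 0.45). Of 5 measured miR-21 targets, RECK rose by 0.26 and TIMP3 and SPRY2 fell by 0.60 and 0.55. PDCD4 differed by 0.26 without a call (adjusted p = 0.34). Each target list thus held called genes of both directions, and the kidney line traits named above rose in the same arrays.

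Host genes and the precursors inside them were compared over 49 pairs with 40 hosts. In shHMGA2, 2 pairs were called in the same direction (MIR218-1 with SLIT2 and MIR30E with NFYC), 3 had the member alone (MIR21, MIR107 and MIR106B), 13 the host alone and 31 neither. Between the arrays labelled Tet1 and HOXA9, 0 pairs were called together, 2 had the member alone (MIR21 and MIR15A), 1 the host alone and 46 neither. Over all genes, 26.2% were called in shHMGA2 minus control and 0.434% in Tet1 minus HOXA9. Across the 49 pairs the differences of member and host correlated with Pearson's r of 0.52 in shHMGA2 minus control and 0.15 in Tet1 minus HOXA9. In shHMGA2 the pair MIR218-1 with SLIT2 had the largest difference of both kinds (1.51 and 0.92). The value of r without this pair was not computed, so 0.52 is not read as general agreement of members and hosts. Pairs that share a host are not independent.

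Host transcripts named after their microRNA were measured in 7 of 17 listed cases. In shHMGA2, MIR17HG, the transcript of the miR-17 to miR-92 cluster, rose by 1.02 on the log2 scale and MIR600HG by 1.05, while MIRLET7BHG fell by 0.39 and MIR22HG by 0.29 (limma adjusted p under 0.05 in each). In that comparison 26.2% of all genes were called. Between the arrays labelled Tet1 and HOXA9, 0 of the 7 were called (median -0.04), beside 0.434% of all genes. These transcripts are long and spliced, and their signals were not used for the members.

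Both induced lines were also set against control, across the array sets. The 2 comparisons share the control arrays, so their values are given side by side and no agreement between them is read. In the arrays labelled Tet1 110 members were called higher and 27 lower, and in those labelled HOXA9 114 were higher and 20 lower (limma adjusted p under 0.05). Over all genes 77.1% were called under Tet1 (53.9% higher, 23.2% lower) and 75.7% under HOXA9 (54% higher, 21.6% lower), so a call here is the common state. Members had a median difference of 0.41 under Tet1 and 0.42 under HOXA9, against 0.25 and 0.24 over all genes. The arrays did not overlap with control for 115 higher and 32 lower members under Tet1 and for 116 and 31 under HOXA9, where 85.7% and 82.8% of all genes had no overlap.

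The excess of higher calls depended on how the array sets were aligned. With a joint quantile normalization 65 members were higher under Tet1 and 62 under HOXA9, and with equal array medians 45 and 51, with 76 and 70 lower. Over all genes the share called higher under Tet1 was then 32.6% and 21.9%, and the share lower 33.3% and 51.4%. For HOXA9 these shares were 29.7% and 20.3% higher, and 34.0% and 51.1% lower. Under all 3 scalings 43 members stayed higher and 20 lower under Tet1, and 43 higher and 15 lower under HOXA9, while 15 and 13 members were called in opposite directions by different scalings. Over all genes 20.1% stayed higher and 21.5% lower under Tet1, and 18.0% higher and 20.5% lower under HOXA9.

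MIR221 and MIR222 were among the falls. MIR222 fell by 2.03 under Tet1 (4.09-fold, SE 0.12, limma adjusted p = 5.2e-08) and by 1.08 under HOXA9 (adjusted p = 5.5e-06), and stayed lower under all 3 scalings in both. MIR221 fell by 1.74 under Tet1 (3.33-fold, SE 0.14, adjusted p = 6.5e-07) and was lower under all 3 scalings. Under HOXA9 MIR221 differed by -0.10 (95% confidence interval -0.42 to 0.22, adjusted p = 0.54), and passed with equal array medians alone (-0.56).

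MIR21 and the miR-100 cluster ran the other way. MIR21 rose 2.14-fold under Tet1 (log2 1.10) and 4.26-fold under HOXA9 (log2 2.09), against 9.38, 8.87 and 9.29 in the control arrays, with no overlap. MIR100 rose by 1.04 and 2.04, and MIR125B1 by 0.89 and 1.30, from control means under 6.26. All 3 genes stayed higher under all 3 scalings in both lines, with MIR100 at 0.48 and 1.61 after the joint quantile normalization. MIRLET7A2 differed by -0.26 under Tet1 (adjusted p = 0.1), passed there with equal array medians (-0.72), and rose by 0.80 under HOXA9 (adjusted p = 2e-04).

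**Figure D4:**
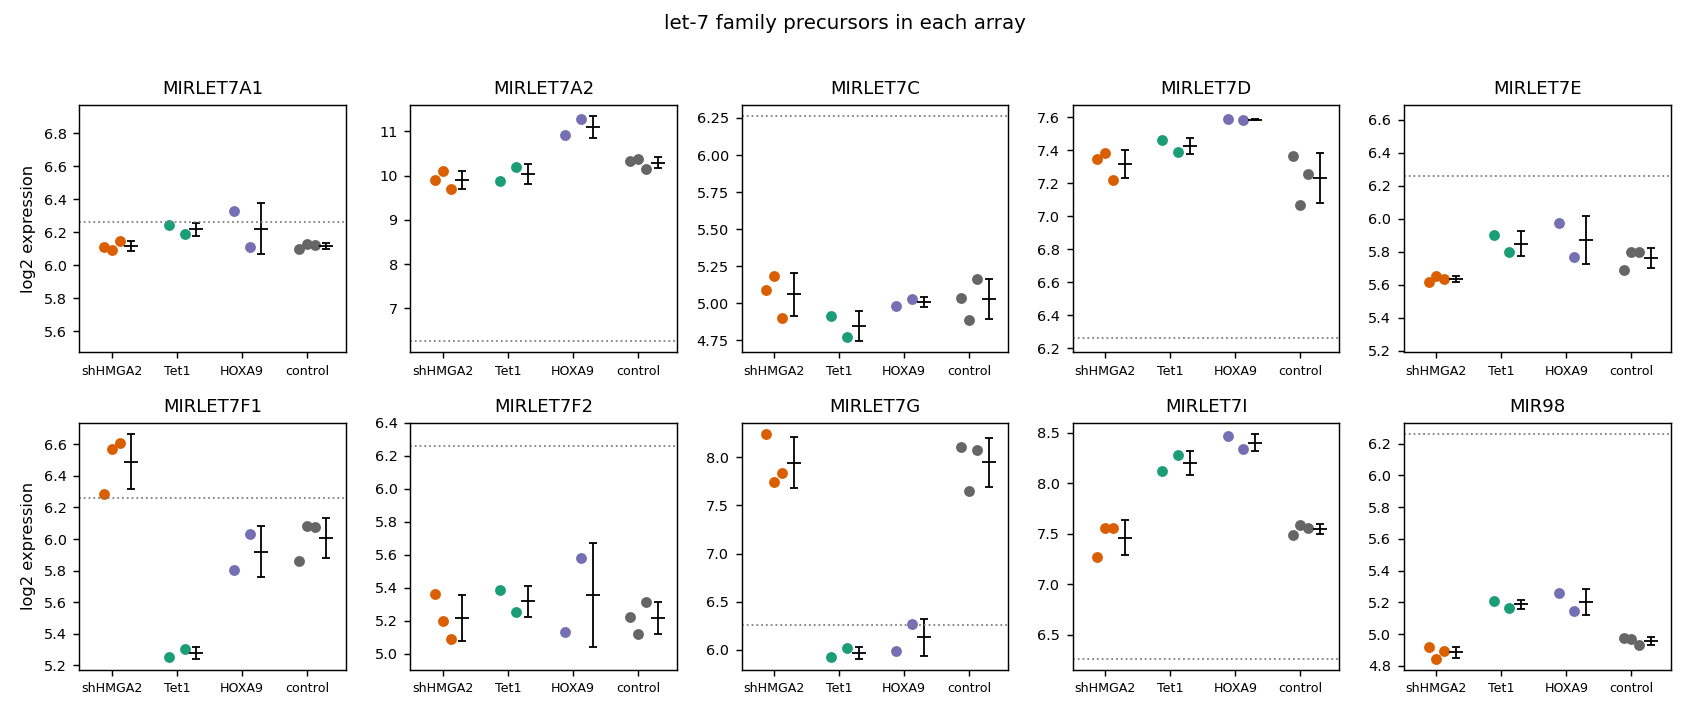
Log2 expression of the 10 measured let-7 family precursors in each array, with groups shHMGA2, Tet1, HOXA9 and control from left to right, points for arrays, bars for the mean and SD, and a dotted line at 6.26. MIRLET7G lies near 6 in both induced lines and near 8 in shHMGA2 and control, MIRLET7I is higher in the induced lines, and several others stay under the line in every group.

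Within the let-7 family the members moved in different directions. MIRLET7G was at 5.93 and 6.02 under Tet1 and 5.99 and 6.27 under HOXA9, against 8.11, 7.65 and 8.08 in control. It fell by 1.98 under Tet1 (SE 0.16, limma adjusted p = 5e-07) and by 1.82 under HOXA9 (adjusted p = 1.1e-06), and stayed lower under all 3 scalings. Both induced means lay under 6.26 and are not known to be above background, so the size of the fall is not settled. In shHMGA2 MIRLET7G was at 8.24, 7.75 and 7.84, which overlapped control. MIRLET7I rose by 0.65 under Tet1 and 0.86 under HOXA9, and with equal array medians the first was 0.19 without a call (adjusted p = 0.079). MIRLET7F1 fell by 0.73 under Tet1 and differed by -0.09 under HOXA9, where it was lower under both other scalings (-0.54 in each), with all these means under 6.26. For MIRLET7A1, MIRLET7D, MIRLET7E, MIRLET7F2 and MIR98 the sign depended on the scaling, so no direction is given. MIRLET7C differed by -0.18 and -0.02 at a level under 6.26, and was called lower in both lines with equal array medians (-0.65 and -0.48).

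In the miR-181 family, MIR181B1 fell by 1.34 under Tet1 (2.52-fold, SE 0.18, limma adjusted p = 3.3e-05), against 8.55, 8.08 and 8.74 in control, and differed by 0.07 under HOXA9 (95% confidence interval -0.33 to 0.47). MIR181A2 rose by 0.78 and 0.91 and stayed higher under all 3 scalings. MIR181C rose by 0.68 and 0.63, a call that was lost under both other scalings in each line. MIR181A1 differed by -0.11 and -0.12, with all means under 6.26, and was called lower in both lines under the other scalings (-0.28 and -0.29, and -0.58 and -0.57). The sign of MIR181B2 depended on the scaling. In the miR-99 and miR-125 genes, MIR99B, MIR125A and MIR125B2 rose by 0.68 to 0.92 in the 2 lines and stayed higher under all 3 scalings, and MIR99A rose by 0.58 and 0.85 but was called under all 3 in the HOXA9 arrays alone. MIR10A was called lower under Tet1 in the deposited values (-0.19, limma adjusted p = 0.025), a call lost after the joint quantile normalization (-0.12). MIR10B differed by -0.02 under Tet1. Under HOXA9 the differences of MIR10A and MIR10B were -0.07 and -0.08 without a call, and levels of both lay under 6.26. With equal array medians both were called lower in both lines (-0.48 to -0.66), and after the joint quantile normalization MIR10B was called higher under Tet1 (0.15).

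Outside the compared families, MIR29A, of a family that represses collagen and DNA methyltransferase genes, was at 4.99 and 4.90 under Tet1 and 5.58 and 6.40 under HOXA9, against 6.81, 7.01 and 6.69 in control. It fell by 1.89 and 0.85 (limma adjusted p = 5.7e-06 and 0.0029) and stayed lower under all 3 scalings, with both induced means under 6.26. MIR138-1 fell by 0.52 and 0.45, also under all 3. MIR503 differed by -0.16 under Tet1 (adjusted p = 0.092) and fell by 0.20 under HOXA9, and under the other scalings it passed in both (-0.45 and -0.62 under Tet1, -0.51 and -0.66 under HOXA9).

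Rises outside those families included MIR129-1, MIR185, MIR193A and MIR200B. MIR129-1 rose by 1.58 under Tet1 and 1.51 under HOXA9, from a control mean of 5.55. MIR185 rose by 1.46 and 1.36, MIR193A by 1.38 and 1.16, and MIR200B, of a family that maintains the epithelial state, by 1.36 and 1.30. MIR27A, MIR7-3, MIR9-3, MIR218-2, MIR26A1, MIR130B and MIR219A1 rose by 0.94 to 1.33, of which MIR27A and MIR7-3 alone had a control mean above 6.26. All 11 kept their direction and their call under all 3 scalings in both lines. MIR15A rose by 1.20 under HOXA9 under all 3 scalings, and by 0.45 under Tet1 (adjusted p = 0.0018), where it was -0.12 and -0.02 under the others without a call.

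The base composition of the hairpin went along with these differences, and so did the signal level of the member. Over the 155 members with a hairpin sequence, the share of G and C correlated with the difference from control with Pearson's r of 0.47 under Tet1 and 0.36 under HOXA9, and after the joint quantile normalization 0.33 and 0.19. For the signal level of the same members r was 0.19 and 0.37, and after the joint quantile normalization 0.02 and 0.21. In the deposited values Spearman's rho was 0.53 and 0.41 for base composition, and 0.44 and 0.52 for signal level. Among the 40 members of lowest share (28.8% to 42.2%), 12 members were higher and 17 lower under Tet1, and among the 39 of highest share (57.0% to 73.6%) 31 were higher and 1 lower. Under HOXA9 the same counts were 15 and 13 at the lowest share, and 31 and 2 at the highest. After the joint quantile normalization the counts under Tet1 were 9 and 16 at the lowest share and 23 and 6 at the highest, and under HOXA9 11 and 11, and 19 and 7. With equal array medians they were 3 and 32, and 20 and 9, under Tet1, and 6 and 28, and 18 and 10, under HOXA9. Within an array set, r with the share of G and C was 0.34 for Tet1 minus HOXA9 and -0.18 for shHMGA2 minus control (Spearman's rho 0.47 and -0.31). With the signal level, r was -0.26 and -0.22 (rho 0.09 and -0.33). In Tet1 minus HOXA9, 4 of the 40 members of lowest share were lower, and 0 of the 39 of highest share. Between them, 4 members with 42.2% to 49.1% and 1 with 50% to 56.7% were lower. The median difference was -0.04 at the lowest share and 0.10 at the highest. In shHMGA2, 2 were higher and 1 lower at the lowest share, and 0 and 4 at the highest. These values describe members that share arrays and normalization, and the parts of base composition and signal level in the differences were not tested.

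**Figure D5:**
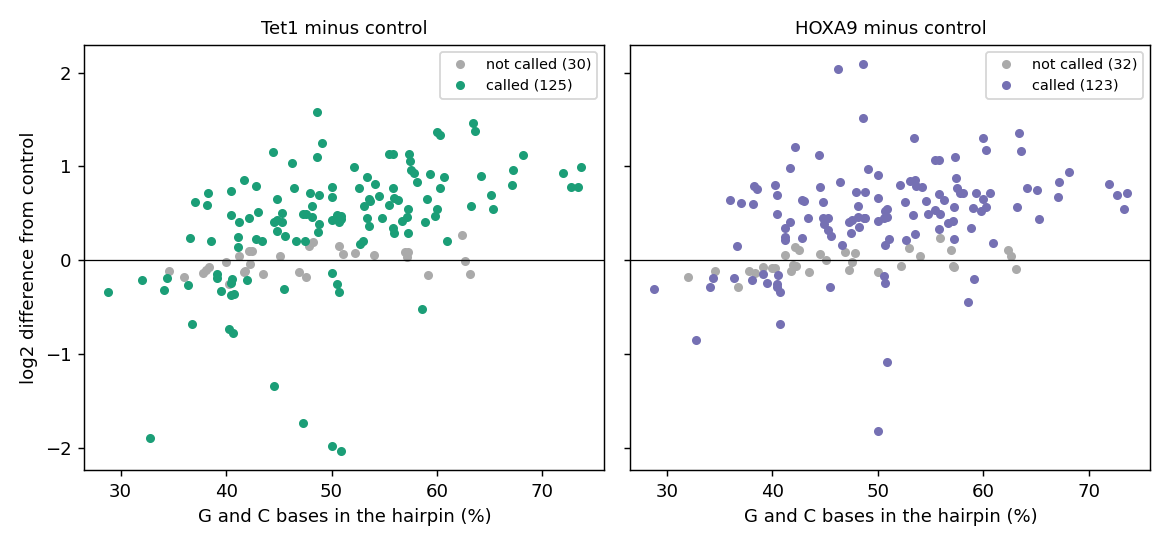
Difference of the log2 values from control, for Tet1 at left and HOXA9 at right, against the percentage of G and C bases in the hairpin for 155 members, with called members coloured. Points rise to the right in both panels, with r of 0.47 and 0.36, and most members under 0 have a low share of G and C.

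Neighbouring precursors gave another view of the same data. In 30 clusters, 77 members lay within 10 kb of another. Between the arrays labelled Tet1 and HOXA9, both members were lower in the clusters of MIR221 with MIR222 and of MIRLET7A2 with MIR100, whereas MIR181B1, MIR15A and MIRLET7F1 were lower alone. In shHMGA2 the same 2 clusters fell with both members. Against control, MIR23A, MIR27A and MIR24-2, on chromosome 19, rose by 0.45 to 1.33 under Tet1 and by 0.49 to 1.17 under HOXA9 in the deposited values. MIR24-2 was not called in either line under the other scalings (-0.03 to 0.04). MIR15B and MIR16-2, on chromosome 3, had opposite calls under Tet1, with -0.68 and 0.62, both at means under 6.26, and MIR16-2 was not called with equal array medians.

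Of the processing genes, 7 were higher and 13 lower under Tet1 and 7 higher and 12 lower under HOXA9, against control in the deposited values, where 77.1% and 75.7% of all genes were called. DROSHA averaged 9.34 under Tet1 and 9.46 under HOXA9, against 10.32 in control, and XPO5 10.33 and 10.48, against 11.33. TNRC6C, a partner of Argonaute proteins, averaged 7.53 and 7.67, against 8.90. Under all 3 scalings 2 stayed higher in each line, TUT7 and HNRNPA1, beside 20.1% and 18.0% of all genes. In the other direction 13 stayed lower under Tet1 and 11 under HOXA9, DROSHA, XPO5 and TNRC6C included, beside 21.5% and 20.5% of all genes. LIN28B was under 6.26 in all 3 groups. Of the let-7 targets, 5 were higher and 3 lower in each line in the deposited values, and under all 3 scalings 0 stayed higher while IGF2BP2, CDC25A and DICER1 stayed lower in both. Of the miR-221 and miR-222 targets, 5 were higher and 2 lower in each line, and under all 3 scalings FOS and ESR1 stayed higher and TIMP3 and BCL2L11 lower. FOS was 2.60 higher under Tet1 and 2.00 higher under HOXA9. Of the miR-21 targets 1 was higher and 2 lower in each line, and TIMP3 and SPRY2 stayed lower under all 3 scalings in both.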

How the data were processed

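RNA was measured on 1-colour Affymetrix human gene arrays. The authors deposited log2 values for 33297 probe sets and 12 columns, and the submitters' processing notes name RMA and R 2.11. The genome build of the probe design and whether all arrays were normalized together are not given in the sources used here. Replicate 3 under Tet1 and under HOXA9 is the average of the other replicates (tolerance 1e-06), which leaves 10 independent arrays. Probe sets with 1 platform symbol were used, the highest mean per gene where there were several. The values were fitted with limma 3.58.1 in R 4.3.3 (lmFit, eBayes, 4 groups, 6 residual degrees of freedom), two-sided, with Benjamini-Hochberg adjustment over 18417 genes and calls under 0.05. Named members were the fixed families, the 12 rising and 12 falling called members with the largest difference, no overlap between groups and a higher mean above the 30th percentile, listed genes, and hosts. Members and lists were chosen with earlier results of these data known, and the view by hairpin composition after the data were seen. Of 173 members, 173 matched RefSeq by gene ID and 155 had a hairpin sequence. Code was tested on simulated data. The array number limits the precision of every value.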

Additional observations from a re-analysis of the deposited data

How the results depend on the processing

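The calls in shHMGA2 minus control and Tet1 minus HOXA9 rest on 2 or 3 arrays a group, with many members near background. Comparisons with control across the array sets depend on the scaling, and the cause was not tested. With one joint quantile normalization, 65 members were higher in Tet1 minus control, and 62 were higher and 31 lower in HOXA9 minus control. With equal array medians, 45 were higher and 76 lower under Tet1 and 51 higher and 70 lower under HOXA9. With dim genes left out, fewer members were tested, and 52 were higher and 5 lower under Tet1, and 56 higher and 4 lower under HOXA9. With all 12 columns as replicates, which shrinks the spread by construction, 4 members were higher and 16 lower in Tet1 minus HOXA9.

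Signs turned for these log2 differences from control. Under the joint quantile normalization and Tet1, MIR10B was 0.15, MIR181B2 -0.18, MIRLET7A1 -0.41, MIRLET7D -0.31 and MIRLET7E -0.33. Under HOXA9, MIR181B2 was -0.19, MIRLET7A1 -0.41, MIRLET7D -0.12 and MIRLET7E -0.32. With equal array medians and Tet1, MIR181B2 was -0.21, MIR98 -0.24, MIRLET7A1 -0.37, MIRLET7D -0.27, MIRLET7E -0.38 and MIRLET7F2 -0.37. Under HOXA9, MIR181B2 was -0.20, MIR98 -0.21, MIRLET7A1 -0.35, MIRLET7D -0.10, MIRLET7E -0.35 and MIRLET7F2 -0.32.

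Leaving out 1 array gave 3 to 4 members higher and 6 to 11 lower in shHMGA2 minus control, 0 to 0 higher and 1 to 8 lower in Tet1 minus HOXA9, 100 to 107 higher and 22 to 27 lower in Tet1 minus control, and 104 to 114 higher and 14 to 18 lower in HOXA9 minus control. In Tet1 minus HOXA9, 24 of 173 members and 1687 of 18417 genes had an unadjusted p under 0.05 in either direction, where limma called 9 members lower and 0 higher.

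Replicate numbers were checked as pairs: deviations of same-numbered arrays correlated with 0.16, 0.14 and 0.00 between shHMGA2 and control and 0.17 and 0.17 between Tet1 and HOXA9, so the numbers were not taken to pair the arrays. With the replicate number as a block, 4 members were higher and 14 lower in shHMGA2 minus control, 0 and 9 in Tet1 minus HOXA9, 109 and 26 in Tet1 minus control, and 112 and 17 in HOXA9 minus control.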
